A study of Mus musculus with 208 samples.

Results

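The 9 genes described here are markers of the hippocampal subfields: Prox1, C1ql2, C1ql3, Trpc6 and Dsp for dentate granule cells, Fibcd1 and Spink8 for CA1 pyramidal cells, Cpne4 for CA3 pyramidal cells, and Calb1, which both dentate granule cells and CA1 pyramidal cells carry. They were taken by symbol from the raw count and counts-per-million (CPM) tables of 4 brain regions, and all 9 were found among the 46403 genes listed across those tables. The 208 libraries came from sorted NeuN+ neuronal nuclei of male and female C57BL/6NTac mice, 1 animal and 1 region per library, with 71 animals from 18 litters in all by the sample numbers, which the study's sample key gives as litter and individual. They comprised 55 libraries from the hippocampus, 48 from the prefrontal cortex (PFC), 54 from the striatum and 51 from the hypothalamus. SAL-SAL mice (13 hippocampal libraries) had saline perinatally and a saline injection as adults. MOR-SAL mice (12) had perinatal morphine and adult saline, where the dams carried a minipump delivering 10 mg/kg per day and the pups were injected with 10 mg/kg 2 times a day over their first 2 weeks. SAL-LPS mice (14) had perinatal saline and an adult injection of lipopolysaccharide (LPS), a bacterial cell wall component that triggers inflammation, and MOR-LPS mice (16) had perinatal morphine and adult LPS. Tissue was collected 2 h after the adult injection in every group. No litter held both perinatal exposures, so exposures were compared between litters, and differences between litters enter those comparisons. A 2.0 mm punch of the hippocampus holds a mixture of subfields that can differ from animal to animal.

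The hippocampus passes information along a chain of excitatory neurons. Dentate granule cells send mossy fibres to CA3 pyramidal cells, and CA3 cells project to CA1. Each of these cell types holds a stable set of genes that the others lack or express weakly, and such genes are used to tell in which subfield a neuron or a piece of tissue lies. In a bulk library, fewer cells of a type and less RNA per cell cannot be told apart, so the levels below describe the mixture in each library.

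Total counts of the hippocampal libraries ran from 227025 to 24071488 with a median of 9184251, and 2 libraries, MOR-SAL 13-1 and MOR-LPS 12-2 (numbered by litter and pup), lay under 0.5 of that median. In 5 hippocampal libraries the summed level of 6 striatal medium spiny neuron genes exceeded 1000 CPM, against a median of 77.6 CPM over all 55. Of these, 4 were SAL-LPS (1-2, 3-1, 9-3 and 10-4) and 1 was SAL-SAL (5-3), so all came from mice with perinatal saline. In 4 hippocampal libraries (MOR-LPS 17-1, MOR-SAL 7-2, MOR-SAL 17-2 and SAL-LPS 2-2) Y-linked counts went against the labelled sex. Over genes, 52 of the 55 hippocampal libraries had their nearest library in the hippocampus and 3 (SAL-LPS 1-2, SAL-SAL 5-3 and SAL-SAL 9-2) had it in the striatum. SAL-SAL 9-2 is not among the libraries with striatal genes. The nearest library shared condition and sex for 30 of the 55. The 10 most alike pairs of hippocampal libraries all shared condition and sex, as 11.1% of all 1485 pairs did, and none shared a litter. Their counts differed by more than counting noise, which does not tell separate animals from separate libraries of 1 animal, and each library was taken as 1 animal from its label. Values without the libraries with striatal genes are given beside the results they touch most.

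Among the members, Dsp and C1ql2 stood furthest above the PFC and the striatum by the ratio of mean CPM. Dsp encodes desmoplakin, which anchors intermediate filaments at desmosomes. Its hippocampal level was 25.3 ± 21.2 CPM (SD, n = 55; lowest 0, median 22.1, highest 89.5), whereas the median was 0 in each other region and the highest PFC library reached 1.76 CPM, but 1 hypothalamic library lay above every hippocampal one. C1ql2, a secreted C1q-like protein that organizes mossy fibre synapses, stood at 44.9 ± 36.4 CPM in the hippocampus (0, 40.8 and 181), with medians of 0 in the PFC, 0.745 in the striatum and 5.04 in the hypothalamus. For C1ql2, 48 of the 55 hippocampal libraries lay above every PFC library and 42 above every striatal one, but 6 lay above every hypothalamic one.

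Prox1, the homeobox factor that specifies granule cells, had a hippocampal mean of 132 ± 79.7 CPM (5.74, 127 and 384) against medians of 8.21 in the PFC, 43.4 in the striatum and 31.3 in the hypothalamus. Trpc6, a calcium-permeable cation channel, had 155 ± 76.2 CPM (21.2, 151 and 356), and its median was 4.09-fold that of the striatum, 4.74-fold that of the PFC and 11.6-fold that of the hypothalamus. C1ql3, a relative of C1ql2, was the lowest member in the hippocampus by CPM, at 14.6 ± 10.3 (0, 12.9 and 53.5). Annotated genes on the opposite strand overlap 64.2% of its exon length (5.2% for Dsp and 1.6% for Prox1), and the sources used here do not state whether counting used strand, so C1ql3 counts may hold reads from those genes.

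Both CA1 members had a higher median in the hippocampus than in each other region. Fibcd1, a membrane receptor that binds acetylated sugars, averaged 49.2 ± 35.1 CPM (2.15, 41.9 and 194), with medians of 8.08, 6.25 and 10.8 CPM in the PFC, striatum and hypothalamus. Spink8, a Kazal-type serine protease inhibitor, averaged 23.0 ± 15.3 CPM (1.77, 19.8 and 89.2), and 7 of 48 PFC libraries reached or passed its hippocampal median. Both ranges overlapped those of every other region.

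Cpne4 and Calb1 were abundant outside the hippocampus. Cpne4, a calcium-dependent phospholipid-binding copine, averaged 300 ± 106 CPM (71.4, 288 and 589) in the hippocampus, and its medians were 137 in the PFC, 156 in the striatum and 19.3 in the hypothalamus. For Cpne4, 54 of 55 hippocampal libraries exceeded every hypothalamic library, yet 11 of 54 striatal libraries reached the hippocampal median. Calb1, the calcium buffer calbindin, averaged 96.8 ± 62.3 CPM (13.2, 87.5 and 365), and 13 of 48 PFC, 21 of 54 striatal and 22 of 51 hypothalamic libraries reached its hippocampal median. The Cpne4 range was thus nearly apart from that of the hypothalamus alone, and the Calb1 range overlapped that of each region widely.

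**Figure D1:**
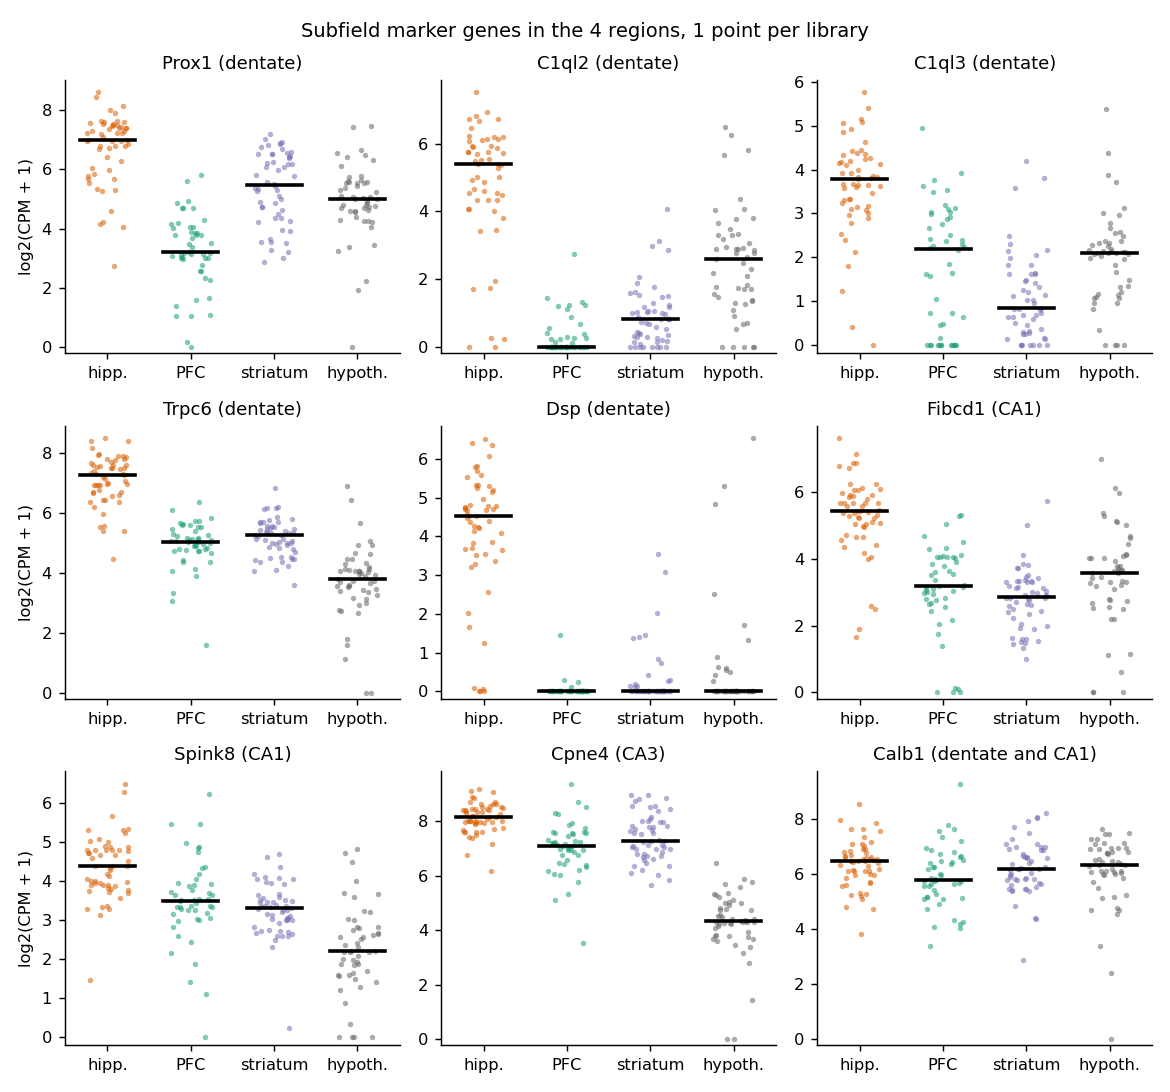
Level of each of the 9 members as log2(CPM + 1) in every library, by region, with 1 point per library and a bar at the median. Dsp and C1ql2 lie near 0 in nearly all PFC and striatal libraries, whereas the Calb1 medians of the 4 regions lie between 54.3 and 87.5 CPM.

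Per kilobase of exon, the median levels in the hippocampus ran in the order Cpne4 (52.4 CPM per kb), Trpc6 (29.8), Spink8 (24.2), C1ql2 (20.4), Calb1 (18.1), Prox1 (15.2), Fibcd1 (8.82), C1ql3 (5.07) and Dsp (2.29). Each member's SD was between 0.354 and 0.836 of its mean, and apart from Cpne4 and Trpc6 no 2 neighbours in this order differed by more than the larger of their SDs.

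In 1 fit over the raw counts of all 4 regions (edgeR's quasi-likelihood test with Benjamini-Hochberg adjustment over 32841 genes), 8 of the 9 members were higher in the hippocampus than in each other region. Of all genes tested, 27.3% were called between hippocampus and PFC, 28.4% between hippocampus and striatum and 62.1% between hippocampus and hypothalamus, and 13.9%, 10.9% and 20% were called higher in the hippocampus, respectively. C1ql2 was 7.05 ± 0.49 (log2, SE) above the PFC and 5.12 ± 0.45 above the striatum, and Cpne4 was 3.82 ± 0.19 above the hypothalamus. For Dsp the fitted differences were 10.23 ± 0.78, 6.16 ± 0.62 and 6.48 ± 0.62 over PFC, striatum and hypothalamus, but its median was 0 in each of those regions, so these fitted sizes rest on few reads. By mean CPM the Dsp ratio was 544 over the PFC, 47.3 over the striatum and 7.62 over the hypothalamus, the last below the ratios of Cpne4 (12.8) and Trpc6 (9.06). Prox1 was 3.37 ± 0.26 above the PFC but 1.18 ± 0.23 above the striatum (adjusted p = 6.79e-06). Fibcd1 was higher by 2.02 ± 0.25, 2.57 ± 0.26 and 1.88 ± 0.25 on the log2 scale over PFC, striatum and hypothalamus.

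Calb1 was the member that was not called against any region in the fit over the 4 regions, with log2 differences of 0.18 ± 0.17 from the PFC, 0.03 ± 0.17 from the striatum and 0.36 ± 0.17 from the hypothalamus (adjusted p = 0.637, 1.0 and 0.0559). Against the hypothalamus it was called with the animal as a block (0.48 ± 0.20, adjusted p = 0.0242), with DESeq2's size factors in edgeR (0.44 ± 0.18, 0.0254), with these 2 regions alone (0.34 ± 0.15, 0.0367), with SAL-SAL libraries alone (0.79 ± 0.31, 0.0280) and without the hypothalamic libraries with dentate genes (0.40 ± 0.17, 0.0346). Without the hippocampal libraries with striatal genes 8 members were again called against each region. With the SAL-SAL libraries alone, 6 members were called against the PFC, 5 against the striatum and 9 against the hypothalamus, where 9.98%, 7.59% and 52.8% of all genes were. The hypothalamic table also counts genes that the other 3 tables leave at 0 throughout, and the median log2 difference of all genes between hippocampus and hypothalamus was -0.52, so those differences are to be read against that shift. Lists of other subfield genes were set beside the members. Of 10 other dentate granule genes, 7 were higher and 1 lower in the hippocampus against the PFC, and likewise 7 and 1 against the striatum. Glis3, a zinc-finger factor, was 4.23 ± 0.31 above the PFC and Lct (lactase) 7.36 ± 0.59, while Marcks stood at -1.17 ± 0.18. Of 6 other CA1 genes, 2 were higher and 3 lower against the PFC.

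The dentate members varied together across hippocampal libraries. Log2 normalized CPM was taken after removal of the condition and sex means, and each of the 36 pairs of members was tested over the 55 libraries by a two-sided permutation test with 100000 resamples. All 10 pairs among the 5 dentate members were positively correlated, with Pearson's r from 0.452 to 0.922 and a median of 0.641. C1ql2 and Dsp were the closest pair (r = 0.922, Spearman's rho = 0.876, adjusted permutation p = 3.6e-05, n = 55), and r without the 2 libraries farthest from the C1ql2 median was 0.895. The unadjusted p of the 6 dentate pairs without C1ql3 was 1e-05, the smallest that 100000 resamples can give, and that of the 4 pairs with C1ql3 ran from 2e-05 to 0.00121. For Prox1 and Dsp the values were r = 0.839 and rho = 0.893 (adjusted permutation p = 3.6e-05), with r = 0.792 without the 2 farthest libraries. Leaving out the 5 libraries with striatal genes, C1ql2 and Dsp had r = 0.923, while 9 of the 10 dentate pairs were called and the lowest r, that of Prox1 with C1ql3, was 0.299. Without the 2 low-depth libraries as well, 1 of which had 0 counts of C1ql3, that pair had r = 0.625, all 10 were called and the lowest r was 0.541. With the total count also removed from each library the median r of the dentate pairs was 0.672. What the correlations come from was not tested.

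The 250 bases before the annotated start of the dentate members that moved most closely together, and of Fibcd1, are shown from RefSeq on GRCm38.p6 because these genes carry the results below. Promoters of 7 of the 9 members were matched. On GRCm38 (GENCODE M21) the gene bodies span chr1:190118035-190170714 for Prox1 (minus strand, 6 merged exons), chr1:120340582-120343174 for C1ql2 (plus, 2), chr13:38151294-38198577 for Dsp (plus, 24) and chr2:31813290-31846005 for Fibcd1 (minus, 7). Each is read 5′ to 3′ on the strand of the gene, and capitals mark a match, on either strand, to the NeuroD-type E-box (CAGATG), the E12-type E-box (CAGCTG) or the cAMP response core (TGACG). Prox1 has 2 annotated starts, and the window is that of the upstream one.
Prox1, chr1:190170828-190171077, minus strand: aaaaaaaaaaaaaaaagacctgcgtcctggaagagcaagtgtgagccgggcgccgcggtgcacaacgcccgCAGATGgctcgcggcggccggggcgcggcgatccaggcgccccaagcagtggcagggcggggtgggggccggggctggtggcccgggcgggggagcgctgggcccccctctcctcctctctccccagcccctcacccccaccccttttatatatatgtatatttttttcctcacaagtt
C1ql2, chr1:120340332-120340581, plus strand: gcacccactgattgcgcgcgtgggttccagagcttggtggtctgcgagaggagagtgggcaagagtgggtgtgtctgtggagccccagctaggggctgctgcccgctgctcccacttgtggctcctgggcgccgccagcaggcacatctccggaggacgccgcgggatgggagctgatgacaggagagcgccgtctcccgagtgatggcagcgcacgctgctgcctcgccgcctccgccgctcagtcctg
Dsp, chr13:38151044-38151293, plus strand: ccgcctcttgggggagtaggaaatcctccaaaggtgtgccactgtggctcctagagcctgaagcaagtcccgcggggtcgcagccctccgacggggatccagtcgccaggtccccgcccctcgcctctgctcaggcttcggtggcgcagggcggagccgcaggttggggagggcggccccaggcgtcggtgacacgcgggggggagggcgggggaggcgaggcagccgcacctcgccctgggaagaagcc
Fibcd1, chr2:31846006-31846255, minus strand: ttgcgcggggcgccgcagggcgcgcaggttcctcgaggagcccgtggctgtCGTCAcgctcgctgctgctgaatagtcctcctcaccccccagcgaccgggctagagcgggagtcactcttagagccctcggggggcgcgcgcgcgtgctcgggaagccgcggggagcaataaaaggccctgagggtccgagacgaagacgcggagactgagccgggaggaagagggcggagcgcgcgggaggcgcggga
Of these windows, Prox1 holds 1 NeuroD-type E-box, Fibcd1 holds 1 cAMP response core, and C1ql2 and Dsp hold none of the 3 motifs. Among 32851 promoter windows of the same length, 14.4% hold the NeuroD-type E-box, 13.0% the E12-type E-box and 17.8% the cAMP response core. The GC content of the C1ql2, Dsp and Fibcd1 windows was 68.8%, 72.4% and 71.6%, against a median of 52.4% over all windows.

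The pairs across subfields were less uniform. Fibcd1 and Spink8, both CA1 members, had r = 0.488 and rho = 0.478 (adjusted permutation p = 0.00096), and r was 0.545 without the 2 farthest libraries. Prox1 and Spink8 had r = 0.011 (adjusted permutation p = 0.936), with r = -0.050 without the 2 farthest. Prox1 and Fibcd1 had r = 0.300 (adjusted permutation p = 0.0402) but rho = -0.024, and r was -0.039 without the 2 farthest libraries, so this relation rests on those libraries. For C1ql2 with Fibcd1 the Pearson value was 0.574 (0.347 without the 2 farthest) and the rank value 0.192, and for Dsp with Fibcd1 they were 0.471 (0.390) and 0.077.

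Cpne4 went with the dentate members Prox1 (r = 0.647, rho = 0.552) and Trpc6 (r = 0.596, rho = 0.447), both with an adjusted permutation p of 3.6e-05 and with r = 0.564 and 0.464 without the 2 farthest libraries. Its r with C1ql3 was 0.011. Calb1 went with C1ql3 (r = 0.737, rho = 0.684) and C1ql2 (r = 0.570, rho = 0.662), both at the same adjusted p, with r = 0.632 and 0.593 without the 2 farthest. For Calb1 with Prox1 the values were r = 0.312 and rho = 0.342 (adjusted permutation p = 0.0327), with r = 0.238 without the 2 farthest. In all, 24 of the 36 pairs were called by Pearson's r, all positive, and 20 by rank. The lowest r among the called pairs was 0.300, and 22.8% of all pairs of the 9325 genes with a hippocampal mean of at least 10 CPM had a positive r at least as high. The median r was 0.438 over the pairs of members and 0.051 over all pairs of genes. Within single conditions, 12 pairs were called over the 13 SAL-SAL libraries, 5 over the 12 MOR-SAL, 27 over the 14 SAL-LPS and 4 over the 16 MOR-LPS. Within SAL-LPS the dentate pairs had r between 0.733 and 0.972, whereas within MOR-SAL they ran from -0.116 to 0.810. Of the 14 SAL-LPS libraries, 4 hold striatal genes and no MOR-SAL library does, and over the other 10 SAL-LPS libraries the dentate pairs had r between 0.513 and 0.972. The signs were the same in all 4 conditions for Prox1 with C1ql2, Trpc6 and Dsp, whereas Prox1 with Fibcd1 was 0.837 within SAL-LPS (0.925 over those 10 libraries) and -0.442 within MOR-LPS. Whether conditions differ in these correlations was not tested.

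**Figure D2:**
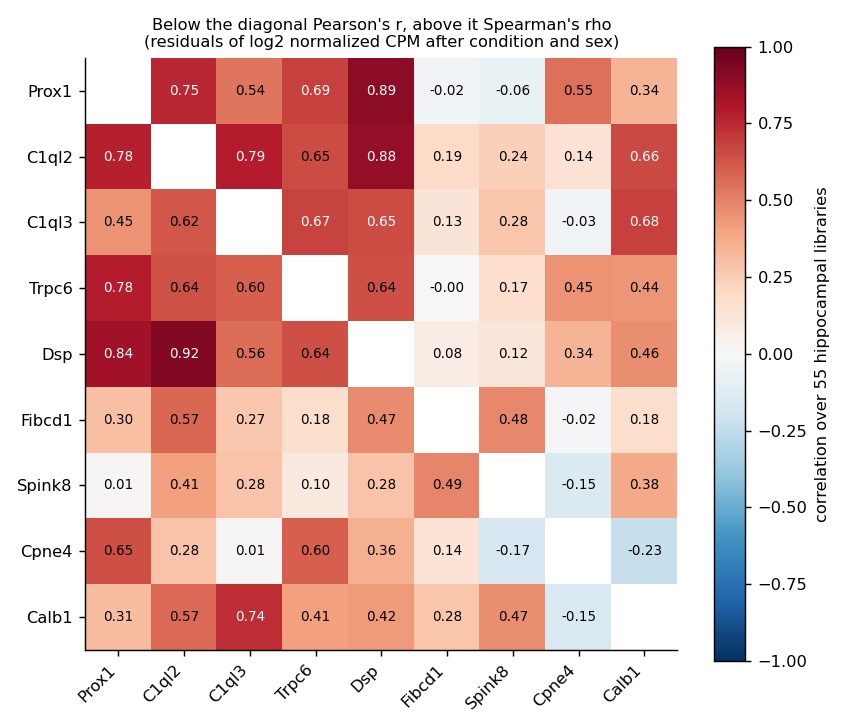
Correlation of each pair of members over the 55 hippocampal libraries after removal of condition and sex, with Pearson's r below the diagonal and Spearman's rho above it, from blue (-1) to red (1). The 5 dentate members form a block with r from 0.452 to 0.922, and Prox1 with Spink8 has r = 0.011.

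The genes most like Prox1 among 9325 genes with a hippocampal mean of at least 10 CPM were Sema5a (r = 0.942), Ahcyl2 (r = 0.924) and Stxbp6 (r = 0.923) over the 55 libraries. Stxbp6 is itself on the list of other dentate granule genes. Without the 7 libraries of low depth or with striatal genes these values were 0.939, 0.921 and 0.897. The genes most like Fibcd1 were Lmo1 (r = 0.704), Adra1d (r = 0.685) and Cpne6 (r = 0.657), and 0.642, 0.564 and 0.592 without those 7 libraries. Among the members, Dsp ranked 22 in likeness to Prox1, Trpc6 56, C1ql2 57 and C1ql3 513, and C1ql2 ranked 14 in likeness to Fibcd1. These rankings describe likeness over the libraries and carry no test.

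The members differed more between hippocampal libraries than most genes of like abundance. The biological coefficient of variation, which edgeR estimates as the relative spread beyond counting noise, was 1.03 for Dsp and 0.972 for C1ql2, and both lay at the 99.8th percentile of the 1000 genes nearest in abundance. Prox1 (0.633) lay at the 98.5th percentile and Fibcd1 (0.593) at percentile 96.3. Cpne4 had the lowest value of the members, 0.394, at the 81.8th percentile. Without the libraries with striatal genes the values were 0.827 for Dsp, 0.826 for C1ql2, 0.561 for Prox1, 0.548 for Fibcd1 and 0.372 for Cpne4, at percentiles from 79.5 (Cpne4) to 99.6 (C1ql2).

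The subfield balance of a library was taken as the mean log2 normalized CPM of the 5 dentate members minus that of the 2 CA1 members. The CA1 side rests on Fibcd1 and Spink8 alone, whose r with the summed level of the 6 other CA1 genes over the 55 libraries was 0.185 and 0.172. With the summed level of the 10 other dentate granule genes, Prox1 had r = 0.853, Trpc6 0.799, Dsp 0.772, C1ql2 0.715 and C1ql3 0.391. With the summed level of the CA2 genes, C1ql2 had r = 0.744 and C1ql3 0.407, both above their values for the dentate list. C1ql3 had still higher r with the subiculum (0.517) and astrocyte (0.504) genes. All 9 members had a negative r with the mossy cell genes, from -0.732 (Dsp) to -0.152 (Cpne4). Fibcd1 had r = 0.419 with the other CA3 genes, and Cpne4, the CA3 member, had 0.226 with them and 0.536 with the other dentate granule genes. The balance is therefore a score of these members, not of all genes of either subfield. Over the 55 libraries it had a median of 0.56 and an SD of 1.20, and it ran from -3.31 in SAL-SAL 5-3 to 2.08 in SAL-LPS 5-2. The lowest values, after SAL-SAL 5-3, were those of SAL-SAL 1-1 (-2.91), SAL-SAL 9-2 (-1.92), SAL-LPS 1-2 (-1.61) and SAL-LPS 9-3 (-1.48). On log2(CPM + 1) the lowest library was SAL-SAL 1-1 (-2.85), and the lowest of SAL-LPS was 10-0 (-0.998) in place of 1-2. SAL-SAL 1-1 held 194 CPM of Fibcd1 and 77.2 of Spink8 beside 23.3 of Prox1 and 21.2 of Trpc6, and SAL-LPS 5-2 held 20.3 and 12.6 beside 255 and 102. SAL-SAL 1-1 was thus above the hippocampal median for both CA1 members and below it for these dentate members, and SAL-LPS 5-2 was below it for both CA1 members and above it for Prox1, but not for Trpc6. SAL-SAL 5-3, SAL-LPS 1-2 and SAL-LPS 9-3 are libraries with striatal genes, and SAL-SAL 9-2 has a striatal library as its nearest. Fibcd1 stood at 47.0 CPM in SAL-SAL 5-3, 2.71 in SAL-LPS 1-2 and 4.60 in SAL-LPS 9-3, so 2 of these low balances came with little of the CA1 member too. The 3 highest values were those of the SAL-LPS males 5-2, 11-0 and 3-3 (2.08, 2.07 and 2.02).

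SAL-SAL 9-0 was low in both sets, with 15.7 CPM of Prox1, 0.166 of C1ql2, no Dsp, 2.15 of Fibcd1 and 10.8 of Spink8. C1ql2 and Dsp were both under 2 CPM in 4 libraries, 3 of SAL-LPS and 1 of SAL-SAL, and in none of the 28 libraries with perinatal morphine. Of these, SAL-LPS 1-2 and 9-3 hold striatal genes, as only libraries with perinatal saline do. The others, SAL-LPS 1-4 and SAL-SAL 9-0, were low in the CA1 members too. A difference between exposures in such libraries was not tested. The 5 libraries with striatal genes had a median Prox1 of 39.5 CPM against 146 CPM in the other 50, and a median Dsp of 0.0644 against 23.6. The median balance was 0.90 in SAL-SAL, 0.39 in MOR-SAL, 0.20 in SAL-LPS and 0.82 in MOR-LPS, with SDs of 1.79, 0.70, 1.27 and 0.86. The 4 condition medians differed by less than the SD over all libraries, and without the libraries with striatal genes they were 0.99, 0.39, 0.38 and 0.82. On log2(CPM + 1) they were 0.90, 0.52, 0.45 and 0.81 in the same order. With Prox1 minus Fibcd1 alone they were 1.881, 1.199, 1.611 and 1.655, so MOR-SAL rather than SAL-LPS was lowest. The balance is a score over the members and was not tested.

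**Figure D3:**
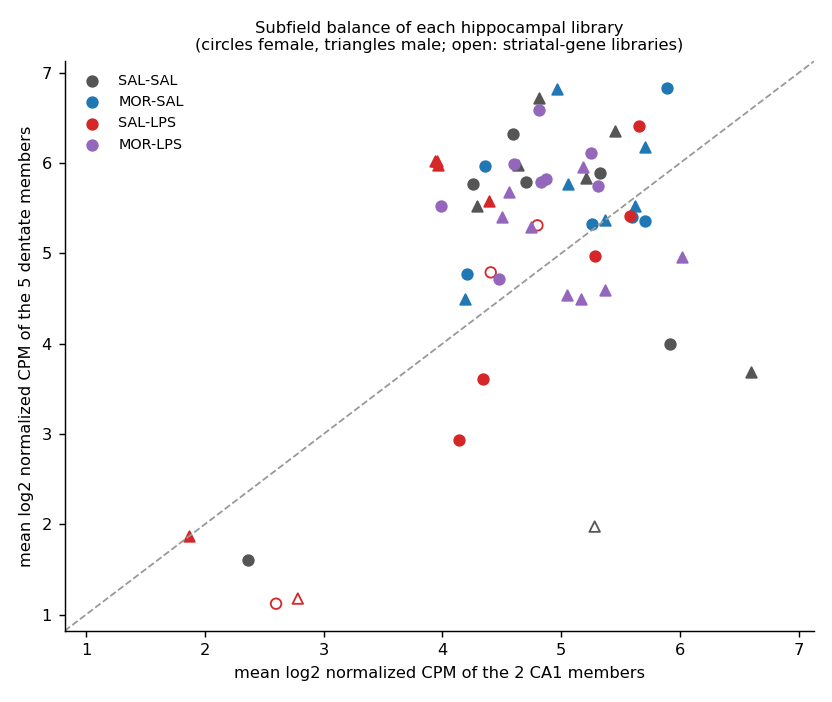
Mean log2 normalized CPM of the 5 dentate members (vertical axis) against that of the 2 CA1 members (horizontal axis), 1 point per hippocampal library, coloured by condition, with circles for females, triangles for males, open symbols for libraries with striatal genes and a dashed line where both means are equal. The conditions overlap, and the libraries farthest below the line, with balances of -3.31 and -2.91, are both SAL-SAL.

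Within the hippocampus, Fibcd1 was the single member called in any of the 5 condition comparisons. In SAL-SAL libraries it ran from 2.15 to 194 CPM (median 47.0, n = 13), in MOR-SAL from 22.6 to 115 (52.9, n = 12), in SAL-LPS from 2.71 to 59.3 (19.9, n = 14) and in MOR-LPS from 24.3 to 116 (44.8, n = 16). The SAL-LPS median was the lowest of the 4, and its range overlapped that of each other group. Between SAL-LPS and SAL-SAL, Fibcd1 fell by 1.25 ± 0.35 on the log2 scale (SE; adjusted p = 0.0382, edgeR's quasi-likelihood test), and 2.55% of the 22076 genes tested were called in that comparison. With edgeR's filter on expression level, which tested 15171 genes and called 0.0132% of them, the size was the same (-1.25 ± 0.36) and the adjusted p was 0.121. Without the 5 libraries with striatal genes the difference was -0.97 ± 0.35 (adjusted p = 0.126). Without the 3 libraries nearest to a striatal library it was -0.93 ± 0.35 (adjusted p = 0.145). The call was also lost without litter 1 (-0.75 ± 0.33, adjusted p = 0.240) and with litter as a block (-1.88 ± 0.40, adjusted p = 0.0564).

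The other 8 members had log2 differences between SAL-LPS and SAL-SAL from -0.60 ± 0.37 (C1ql3) to -0.15 ± 0.57 (Dsp), none with an unadjusted p under 0.05. Prox1 stood at -0.53 ± 0.36, with levels from 15.7 to 349 CPM in SAL-SAL (median 166) and from 5.74 to 255 in SAL-LPS (median 74.4). All 9 estimates were below 0, against a median of -0.000346 over all genes, but Dsp stood at 0.08 ± 0.52 without the libraries with striatal genes and 0.10 ± 0.60 without litter 10, and Spink8 at 0.07 ± 0.30 without litter 1. Without the 4 SAL-LPS libraries with striatal genes the SAL-LPS median of Prox1 was 109 CPM.

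**Figure D4:**
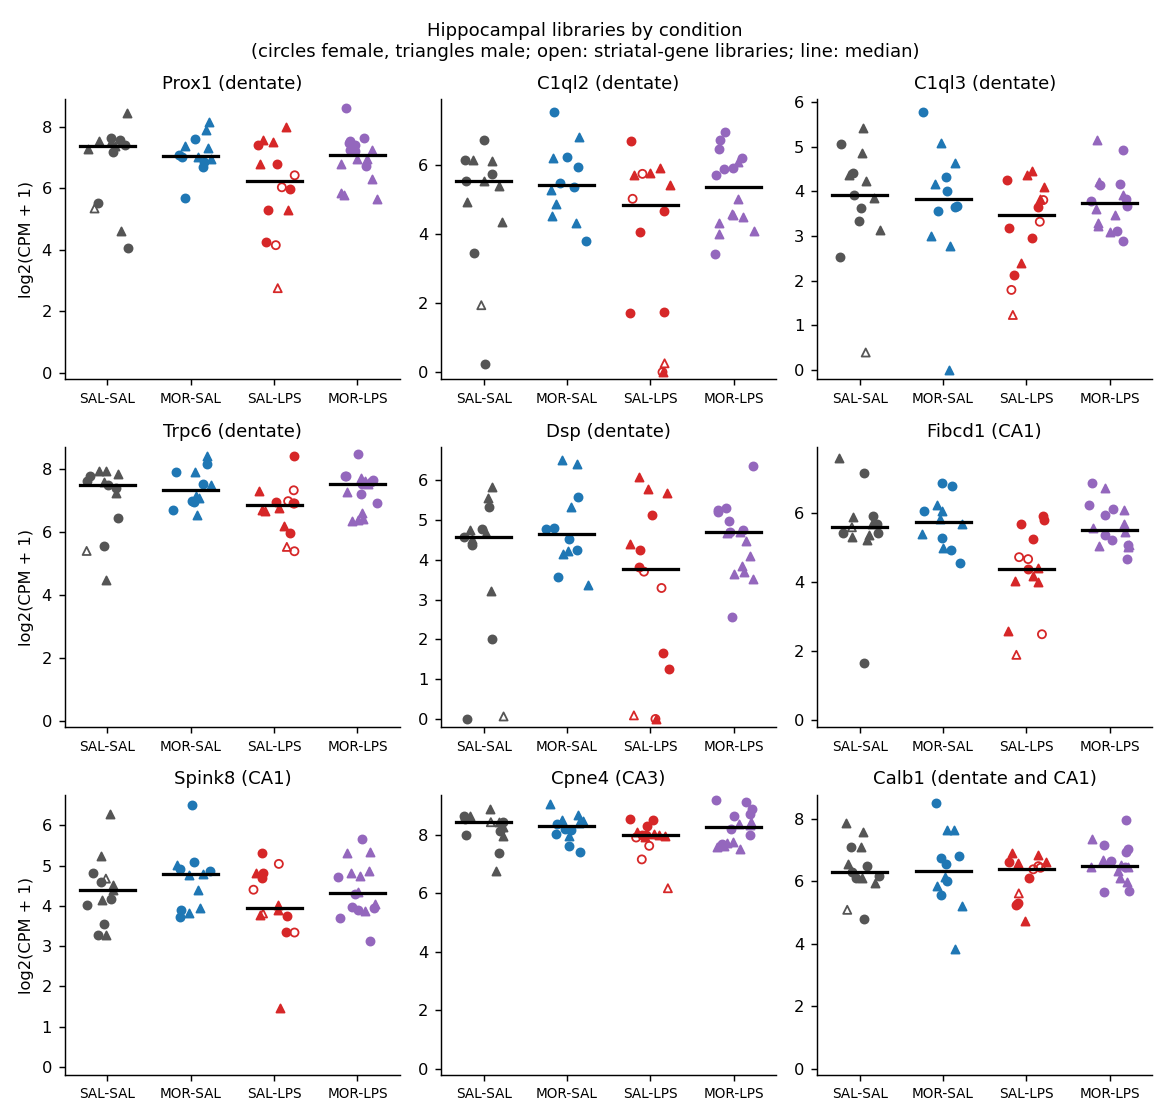
Level of each member as log2(CPM + 1) in the 55 hippocampal libraries, by condition, with circles for females, triangles for males, open symbols for libraries with striatal genes and a line at the median. The Fibcd1 median is 19.9 CPM in SAL-LPS and between 44.8 and 52.9 in the other 3 groups, and the groups overlap for each member.

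For Fibcd1, all 6 SAL-LPS libraries labelled male, from 2.71 to 20.3 CPM (median 15.2), were below the lowest of the 7 labelled SAL-SAL males. Those SAL-SAL males ran from 36.2 to 194 (median 47.0). SAL-LPS 2-2, labelled female, has Y-linked counts against its label. Its log2 normalized Fibcd1 of 6.08 was the highest of the SAL-LPS group and above that of SAL-SAL 3-2 (5.24), the lowest labelled SAL-SAL male. The separation of males therefore holds by label only. The 8 male MOR-LPS libraries ran from 31.6 to 104 (median 44.8) and the 6 male MOR-SAL libraries from 30.8 to 74.5. Each of the 4 litters that gave male SAL-LPS libraries also gave male SAL-SAL libraries, and in each of them every SAL-LPS male was below every SAL-SAL male. In litter 1 the values were 2.71, 4.98 and 15.5 CPM against 194, in litter 3 they were 17.0 against 36.2, 40.1 and 58.3, in litter 5 they were 20.3 against 38.4 and 47.0, and in litter 11 they were 14.9 against 49.9. The lowest male SAL-LPS value, 2.71, and the SAL-SAL value of 47.0 in litter 5 are those of libraries with striatal genes. Without both, the remaining 5 SAL-LPS males ran from 4.98 to 20.3 CPM and the remaining 6 SAL-SAL males from 36.2 to 194. The library at 4.98 CPM, SAL-LPS 1-4, held no C1ql2 or Dsp and 1.77 CPM of Spink8, so it was low in dentate and CA1 members alike. The SAL-LPS males 3-3, 5-2 and 11-0, from different litters, were alike in the other members too, with Spink8 from 12.6 to 15.1 CPM, Trpc6 from 101 to 108 and Cpne4 from 244 to 257. Of all 6 SAL-LPS males, 3 came from litter 1, and the litter 1 SAL-SAL male is the library with the highest Fibcd1 of all 55. The share of all genes that part the labelled male groups as fully was not computed.

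In females the groups overlapped. The 8 female SAL-LPS libraries ran from 4.60 to 59.3 CPM (median 31.3) and the 6 female SAL-SAL libraries from 2.15 to 141 (median 46.1). Fitted in males alone, the SAL-LPS to SAL-SAL difference of Fibcd1 was -2.31 ± 0.38 (adjusted p = 0.0090), and in females alone it was -0.56 ± 0.48 (adjusted p = 0.862). Over all genes, these fits called 30 in males and 0 in females. The difference between the sexes was itself tested and was -1.73 ± 0.65 on the log2 scale, male minus female, with an unadjusted p of 0.00977 in a model across all genes and an adjusted p of 0.218 (-1.97 ± 0.63, adjusted p = 0.170 without the libraries with striatal genes). In that test 0.0136% of genes were called (0% with the filter on expression level) and no member was, with Fibcd1 and Spink8 (-1.41 ± 0.59, unadjusted p = 0.0209 in the same model) under 0.05 before adjustment. The sexes were therefore not shown to differ. This test of the difference was added after the values were seen. It and the fits by sex, here and below, used the labelled sex, with SAL-LPS 2-2 among the females. They were not repeated without the libraries against the labelled sex.

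Under LPS, perinatal morphine was set against perinatal saline. For Fibcd1, MOR-LPS was 1.01 ± 0.33 above SAL-LPS on the log2 scale (adjusted p = 0.0726), which missed the threshold, and 0 of the 9 members were called where 2.73% of all genes were. With the filter on expression level the adjusted p was 0.228 and 0.00659% of genes were called. Library size alone as the scaling gave 1.21 ± 0.34 (adjusted p = 0.0328), and males alone gave 2.02 ± 0.37 (adjusted p = 0.0109). Females alone gave 0.44 ± 0.45 (adjusted p = 0.679). Over all genes, the fit in males called 27 and that in females 73. The difference was 0.74 ± 0.34 without the libraries with striatal genes (adjusted p = 0.222), which include 4 of the 14 SAL-LPS libraries and no MOR-LPS library, and 0.76 ± 0.32 without litter 1 (adjusted p = 0.180). The male minus female difference of this comparison was 1.54 ± 0.61 for Fibcd1 (adjusted p = 0.152, or 0.0760 without the libraries with striatal genes) and -1.69 ± 0.65 for Prox1 (adjusted p = 0.139), where 2.41% of all genes (0.727% with the filter) and 0 members were called, 4 of the 9 with an unadjusted p under 0.05. The 8 male and 8 female MOR-LPS libraries had median Prox1 levels of 93.6 and 171 CPM, and the SAL-LPS males and females had 145 and 63.0. Both comparisons with SAL-LPS share the same 14 SAL-LPS libraries, so their values for Fibcd1 are not independent of each other.

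The other members' differences between MOR-LPS and SAL-LPS ran from 0.15 ± 0.30 for Spink8 to 0.47 ± 0.35 for Prox1. Without the libraries with striatal genes Dsp stood at -0.01 ± 0.50, and without litter 7 Spink8 stood at -0.03 ± 0.28. In males alone Prox1, C1ql2 and Dsp stood at -0.45 ± 0.46, -0.35 ± 0.65 and -0.87 ± 0.75. The interaction of LPS and exposure was 1.03 ± 0.48 for Fibcd1 (adjusted p = 0.340; 0.77 ± 0.47 without the libraries with striatal genes, 0.55 ± 0.44 without litter 1, 0.41 ± 0.69 in females and 2.04 ± 0.50 in males, none called) and between -0.22 and 0.41 for the others, and 0 members were called where 2.35% of genes were (with the filter on expression level, 0% of genes and 0 members).

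**Figure D5:**
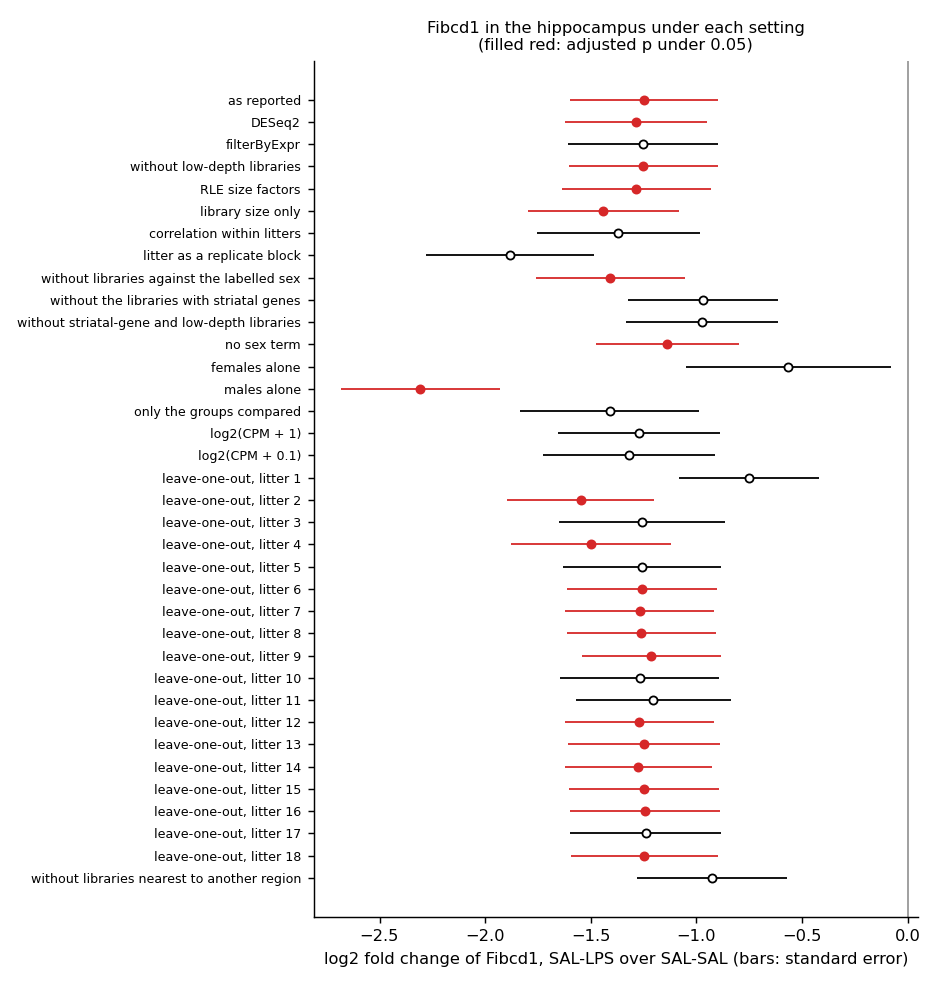
Log2 fold change of Fibcd1 between SAL-LPS and SAL-SAL in the hippocampus as reported and under each other setting, with standard errors as bars and settings with an adjusted p under 0.05 in filled red. All values lie below 0, between -2.31 (males alone) and -0.56 (females alone).

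Without LPS, perinatal morphine left no member called. Between MOR-SAL and SAL-SAL the members' log2 differences ran from -0.02 ± 0.35 for Fibcd1 to 0.52 ± 0.60 for Dsp, and no member had an unadjusted p under 0.05. In this comparison 0% of genes were called by edgeR's quasi-likelihood test (also 0% with the filter on expression level), 2272 genes had an unadjusted p under 0.05, and DESeq2 called 7 genes and no member. Prox1 had a median of 166 CPM in SAL-SAL and 131 in MOR-SAL, and C1ql2 had 45.1 and 42.0.

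After perinatal morphine, LPS left no member called either. Between MOR-LPS and MOR-SAL the differences ran from -0.47 ± 0.54 (C1ql2) to -0.06 ± 0.22 (Cpne4) where 0.467% of genes were called, or 0.0593% with the filter on expression level. Fibcd1 was -0.22 ± 0.33 in this comparison. Between females and males, 2.51% of genes and 0 members were called (0.185% with the filter), with member differences from -0.41 ± 0.41 (Dsp) to 0.43 ± 0.38 (C1ql2). DESeq2 called 1 member in these hippocampal comparisons, again Fibcd1 between SAL-LPS and SAL-SAL (-1.28 ± 0.34, adjusted p = 0.0294), where it called 0.86% of genes.

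The other genes of the subfield lists were also below the threshold in the hippocampus. None of the 10 other dentate granule, 6 other CA1, 6 other CA3, 6 CA2 or 5 mossy cell genes was called in any of the 5 condition comparisons. Between SAL-LPS and SAL-SAL the medians of these lists were -0.41, -0.18, -0.30, -0.17 and 0.24 on the log2 scale, and the CA2 gene Rgs14, a regulator of G protein signalling, stood at -0.55 ± 0.17 (adjusted p = 0.0659). The 6 striatal medium spiny genes had a median of 1.48 with 0 called. The part that the striatal genes have in the Fibcd1 difference was not tested beyond leaving their libraries out.

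Outside the hippocampus the members were called in the hypothalamus only. In the PFC, 0 of the 9 members were called in the 5 condition comparisons, where 0% (MOR-SAL against SAL-SAL), 0.0046% (MOR-LPS against SAL-LPS), 0% (SAL-LPS against SAL-SAL), 0.0184% (MOR-LPS against MOR-SAL) and 1.78% (interaction) of genes were. In the striatum the members' count was also 0, and the shares of genes called, in the same order, were 0%, 0%, 0.0128%, 1.39% and 0.00854%. Of the 9 members over 5 comparisons, 3 values in the PFC and 3 in the striatum had an unadjusted p under 0.05, and DESeq2 called no member in either region. Fibcd1 between SAL-LPS and SAL-SAL stood at -0.82 ± 0.69 in the PFC and -0.57 ± 0.37 in the striatum, neither past the threshold.

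In the hypothalamus, where 1.44%, 1.03%, 0.246%, 6.27% and 3.8% of genes were called in those comparisons, 2 members were, and 15 of the members' values over the 5 comparisons had an unadjusted p under 0.05, 6 of them between MOR-LPS and MOR-SAL. Dsp was called between MOR-LPS and SAL-LPS (adjusted p = 0.0346), and no fold is given because 11 of the 12 SAL-LPS libraries were at 0 and the other held 1 count. C1ql2 was 2.13 ± 0.59 higher in MOR-LPS than in MOR-SAL (adjusted p = 0.0205). Both calls rested on a few male MOR-LPS libraries. Library 6-0 held 172 CPM of Prox1, 88.4 of C1ql2, 91.5 of Dsp and 126 of Fibcd1, which lies within the hippocampal range of each gene except Dsp, where it is above it. Library 8-3 held 100 CPM of Prox1, 74.8 of C1ql2, 38.4 of Dsp and 69.0 of Fibcd1, and library 14-0 held 85.1, 54.7, 27.7 and 61.0. The median of the 14 MOR-LPS libraries was 4.45 CPM for C1ql2 and 0 for Dsp. Without libraries 6-0 and 8-3, whose other dentate granule genes summed to over 1000 CPM against a median of 386, 0 members were called. DESeq2 called 2 members in the hypothalamus, both between MOR-LPS and MOR-SAL, where it called 4.41% of genes.

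Fibcd1 had a hypothalamic MOR-LPS median of 17.8 CPM (n = 14), against 12.7 in SAL-LPS (n = 12), 9.95 in MOR-SAL (n = 14) and 5.80 in SAL-SAL (n = 11). Its difference between SAL-LPS and SAL-SAL was 1.04 ± 0.48 there (adjusted p = 0.301), on the other side of 0 from the hippocampus. The difference between the 2 regions was not tested.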

How the data were processed

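RNA of NeuN+ nuclei was sequenced from 55 hippocampal, 48 PFC, 54 striatal and 51 hypothalamic libraries, each from 1 animal and made with a modified Smart-seq3 protocol with tagmentation. Per the study's methods and the submitters' processing notes, the authors trimmed reads with Trim Galore 0.6.7, aligned them to mm10 with STAR 2.7.10a and its gene counts, checked the counts with HTSeq 0.12.4 against GENCODE vM25, and tested with DESeq2 1.40.2. The deposited raw count tables hold whole reads per gene, and the deposited CPM tables hold each count scaled to the library total (CPM) after mitochondrial genes were dropped. The strand setting was not given in the sources used here. Reads carry counting error and no replicate beyond the animal, and total counts differed widely between libraries, so low members in shallow libraries rest on few reads.

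From these files, each region was fitted alone with edgeR 4.0.16 (TMM, quasi-likelihood test, condition and sex as terms, genes with a total count above 10) in R 4.3.3, with Benjamini-Hochberg adjustment over all genes tested and a threshold of 0.05. The 4 regions were also fitted together to set hippocampus against each other region. The code was tested on simulated data. Calls under edgeR's filter on expression level are given beside those under the filter on total count, which keeps genes with counts in few libraries. DESeq2 1.42.0, limma 3.58.1 on log2(CPM + 1) and log2(CPM + 0.1), other scalings, litter terms and left-out libraries and litters were alternatives. The labels number each replicate in 2 parts, which the study's sample key gives as litter and individual. Here a litter with animals under both challenges counts once. The study's text gives a larger number of distinct litters, listed by condition, and the labels used here do not account for that number. The correlation within litters estimated by limma was -0.003 (0.013 within animals over regions). The named genes were the 9 members, the 3 genes most like Prox1 and the 3 most like Fibcd1, and other genes of the lists where a result turned on one; Glis3, Lct, Marcks and Rgs14 were named after their values were seen. The members and lists were chosen with earlier results of these data known. Promoter windows came from RefSeq on GRCm38.p6, and gene positions from GENCODE M21 on GRCm38. Promoters of Spink8 and Calb1 were not matched.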

Additional observations from a re-analysis of the deposited data

Results flagged for a closer look

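In groups of 10 or fewer libraries, 8 member values stood apart from the rest of their group by Dixon's test, among 25 groups and genes that could be tested. The test's rate of 1 in 20 holds for normally distributed values, and several of these groups have a median CPM at or near 0. The 8 flags are therefore not set against a chance rate. All lay outside the hippocampus, where each condition held more libraries and was not tested in this way. In the PFC, library SAL-LPS 1-0 was high in Prox1 (27.91 CPM against a median of 7.065 in the other libraries of its group), C1ql2 (1.508 against 0) and Calb1 (609.4 against 48.33). PFC library SAL-SAL 9-4 was high in Prox1 (55.08 CPM against 10.16) and C1ql2 (1.701 against 0), and SAL-SAL 9-0 was high in Fibcd1 (38.02 against 7.975). In the striatum, MOR-SAL 17-2 held 6.205 CPM of C1ql2 against 0.2087, and MOR-SAL 15-0 held 0.6724 CPM of Dsp where the other 7 libraries had a median of 0. The largest of these Prox1 and C1ql2 values lie below the hippocampal medians of 127 and 40.8 CPM.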

How the results depend on the processing

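Of the members' differences under other settings, 2002 values kept their direction and side of the threshold, 24 lost and 9 gained a call, 134 that were called in neither fit changed sign, and 0 with a call changed sign. The Fibcd1 call between SAL-LPS and SAL-SAL was kept in 7 of 17 other settings and in 12 of 18 fits without 1 litter (log2 difference -1.55 to -0.75, lost without litters 1, 3, 5, 10, 11 and 17). It was kept with DESeq2, both other scalings, without low-depth libraries, without the libraries against the labelled sex, with no sex term and in males alone. The count of members called in this comparison was 0 with the filter on expression level, correlation within litters, litter as a block, without the libraries with striatal genes (also without those and the low-depth libraries), without the 3 libraries nearest to another region, females alone, the groups compared alone, and both log2 CPM fits, and 0 to 1 without each litter. In MOR-LPS vs SAL-LPS it was 1, Fibcd1, with library size only, without the libraries against the labelled sex, in males alone and without litter 2. Library size as the only scaling moved the median log2 difference of all genes by up to 0.187.

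Counts over all genes moved more. MOR-SAL vs SAL-SAL had 7 calls with DESeq2 and with no sex term, and 3 with correlation within litters (0 as reported; 0 to 14 without each litter). MOR-LPS vs SAL-LPS (602) had 145 with DESeq2, 1 with the filter on expression level, 24 with correlation within litters, 124 without the striatal-gene libraries, 162 also without low-depth ones, 1423 with no sex term, 73 in females, 27 in males, 37 with the groups compared, and 16 and 17 on log2(CPM + 1) and log2(CPM + 0.1) (145 to 741 without each litter). SAL-LPS vs SAL-SAL (563) had, in the same order, 188, 2, 99, 27, 65, 1207, 0, 30, 0, 2 and 3, 0 with litter as a replicate block and 243 without the libraries nearest to another region (0 to 830). MOR-LPS vs MOR-SAL (103) had 49, 9, 0, 20, 17, 202, 0, 25, 0, 0 and 1, 1 with the block, 20 without low-depth libraries, 18 with library size only, 27 without the libraries nearest to another region and 24 without the libraries against the labelled sex (1 to 77). The interaction (519) had 7 with DESeq2, 0 with the filter, 1 with correlation within litters, 0 with the block, 1 in females, 19 in males, and 0 and 1 on the log2 CPM scales (351 to 573). Female vs male (554) had 225, 28, 77, 76 and 40 with DESeq2, the filter, correlation within litters and the log2 CPM scales (266 to 632). The causes were not tested.

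With the litter block, paired within litters, Fibcd1 was the member whose call changed (-1.88, adjusted p = 0.0564). With the animal as a block across regions, 8, 8 and 9 members were called against PFC, striatum and hypothalamus. Against the striatum, 5 members were called with SAL-SAL libraries alone. The 2 hypothalamic member calls became 1 with the filter on expression level and 0 without the libraries with dentate genes. Pairs of members called numbered 12, 5, 27 and 4 within SAL-SAL (13 libraries), MOR-SAL (12), SAL-LPS (14) and MOR-LPS (16), against 24 over all 55. C1ql3 had 0 counts in 1 hippocampal library, the low-depth MOR-SAL 13-1, whereas Dsp and C1ql2 had 0 counts in 3 and 2 libraries whose totals ran from 6036905 to 15268816, so depth limits the C1ql3 value there.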
